A study of Homo sapiens with 6 samples.

Results

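Cancer-testis antigens were followed in SUM159, a long-established line of triple-negative human breast cancer, after exposure to decitabine. The genes were LUZP4, DDX53, CTCFL, GAGE13, GAGE2A, CTAG1A, CTAG2, ACTL8, CT55 and PASD1, which are 10 of the 14884 genes with a named array feature. They were chosen by gene symbol, with earlier results of these arrays known, and each was represented by the array feature selected on the highest mean over the 6 arrays. GAGE2A and CTAG1A had 2 features each and the other 8 genes a single one. The mean decided only for GAGE2A, because both features of CTAG1A held the same values. The treated group was 3 samples kept for 72 h in 1 µM decitabine with fresh medium each day, and the untreated group was 3 samples kept for 72 h in control medium, whose content of drug solvent the labels do not give. The titles of the untreated samples also carry the dose, which was not read as treatment. The labels name no engineered allele. They do not say whether the 3 samples of a group were grown apart, and the p-values therefore cover the scatter of these samples alone, which may be technical. RNA was taken from whole cultures, so a gene that is on in more cells and a gene with more RNA per cell cannot be told apart.

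Cancer-testis antigens are proteins that are made in male germ cells, are silent in most other adult tissues and reappear in some tumours. Many of their genes lie on the X chromosome in families of near-identical copies, and methylation of CpG dinucleotides in their promoters is a known part of their silencing in somatic cells. Decitabine is a deoxycytidine analogue that is incorporated into DNA and depletes DNA methyltransferases, which is why these genes are a common readout of the drug. The comparison asks how far each of these genes changed with the drug.

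Promoter sequences are shown first because promoter CpG methylation is part of the silencing described above, and the CpG (CG) dinucleotides are in capitals. The sequences are the 250 bases before an annotated gene start, 5′ to 3′ on the gene's strand, from RefSeq on GRCh38.p14, whereas the arrays name no genome build. LUZP4 (chrX:115289465-115289714, plus strand) and DDX53 (chrX:22999710-22999959, plus strand) had the largest changes among the 10. The GAGE13 (chrX:49331332-49331581) and GAGE2A (chrX:49589246-49589495) windows, both on the plus strand, are identical over these 250 bases and are printed once. CTCFL (start 1, chr20:57524698-57524947, minus strand) is shown at the start with the most CpG of its 3, and CT55 (start 1, chrX:135171828-135172077, minus strand) as the gene with the smallest change.
LUZP4: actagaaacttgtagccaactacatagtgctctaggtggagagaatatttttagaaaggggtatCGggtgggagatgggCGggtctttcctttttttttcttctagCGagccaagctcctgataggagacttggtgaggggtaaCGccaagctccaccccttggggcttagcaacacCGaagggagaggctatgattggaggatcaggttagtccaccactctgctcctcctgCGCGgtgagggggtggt
DDX53: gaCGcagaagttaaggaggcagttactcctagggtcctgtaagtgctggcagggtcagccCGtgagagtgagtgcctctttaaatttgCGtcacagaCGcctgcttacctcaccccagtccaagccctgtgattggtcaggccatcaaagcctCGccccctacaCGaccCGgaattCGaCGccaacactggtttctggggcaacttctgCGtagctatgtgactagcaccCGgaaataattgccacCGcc
GAGE13 and GAGE2A: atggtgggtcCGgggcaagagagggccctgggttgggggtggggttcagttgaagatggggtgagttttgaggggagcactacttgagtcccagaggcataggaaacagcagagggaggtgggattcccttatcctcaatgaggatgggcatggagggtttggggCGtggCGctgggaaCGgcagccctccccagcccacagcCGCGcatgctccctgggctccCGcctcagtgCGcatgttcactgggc
CTCFL start 1: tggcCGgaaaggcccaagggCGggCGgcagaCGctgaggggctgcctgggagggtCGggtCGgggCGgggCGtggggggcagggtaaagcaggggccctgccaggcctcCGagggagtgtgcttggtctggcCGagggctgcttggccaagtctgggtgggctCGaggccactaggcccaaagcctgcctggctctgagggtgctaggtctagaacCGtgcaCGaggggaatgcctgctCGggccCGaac
CT55 start 1: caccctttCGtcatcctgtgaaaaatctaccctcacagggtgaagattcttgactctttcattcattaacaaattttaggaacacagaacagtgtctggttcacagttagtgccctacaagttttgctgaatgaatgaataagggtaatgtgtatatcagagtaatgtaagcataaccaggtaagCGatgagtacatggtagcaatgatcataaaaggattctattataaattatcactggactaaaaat

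The LUZP4 window held 7 CpG and the DDX53 window 12, beside log2 changes of 2.25 and 2.23 for these genes. CTCFL had 3 annotated starts with 15, 7 and 2 CpG, and the GAGE windows had 8 each. ACTL8 had 6, PASD1 had 10, and CT55 had 2 at its first start and 8 at the second. Across all 35116 promoter windows of the table the median was 11 CpG, with quartiles of 3 and 23. Across the windows of measured genes it was 17. Those are 14884 windows of 10749 genes, so some genes have several windows and other measured genes have none. The 11 windows of the genes described here had a median of 8, and the windows of all genes that rose had a median of 18. The 11 come from 8 genes, with 3 for CTCFL, 2 for CT55 and the identical window of GAGE13 and GAGE2A counted for each. DDX53 and start 1 of CTCFL were above the median of all windows but below that of the windows of measured genes. No test of these numbers was made. Methylation of these windows was not measured, and whether the number of CpG goes with the size of the change was not tested. Beside these numbers, the changes were 2.23 for DDX53 (12 CpG), 0.45 for PASD1 (10), 2.25 for LUZP4 (7) and 0.68 for ACTL8 (6). They were 1.60 for GAGE13 and 1.53 for GAGE2A (8 each). CTCFL, with 15, 7 and 2 CpG, changed by 1.08, and CT55, with 2 and 8, by 0.29. The GAGE13 and GAGE2A windows differ at a single base of the 300 that include 50 bases after the start. That difference is C252T, counted from the first base of the window with the GAGE13 base first, 2 bases after the annotated start. CTAG1A and CTAG2 had no entry in the promoter table and 8 of the 10 genes did.

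Short motifs were searched on both strands of the same windows, as a description only. The GC box GGGCGG was found in LUZP4, in all 3 CTCFL windows (3 matches at start 1) and at the second start of CT55. It was in 42.6% of all windows and in 55.5% of the windows of measured genes. The ETS core CCGGAA was found at 82 and 21 bases before the start of DDX53 and 247 bases before start 1 of CTCFL. It was in 14.5% of all windows and in 18.5% of those of measured genes. The E-box CACGTG was found in ACTL8, 9 bases before the start, in 6.34% of all windows and in 7.6% of those of measured genes. Matches of different motifs did not overlap, and each of the 3 motifs contains a CpG that is also in the CpG counts.

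In the fit that did not pair the replicates, LUZP4, DDX53 and CTCFL rose after decitabine, none of the 10 genes fell, and 7 did not pass. The test was limma's moderated test on the deposited log2 values, two-sided, with p adjusted by the Benjamini-Hochberg method over all 14884 genes and a threshold of 0.05. In that fit 2.01% of all genes rose and 1.02% fell. When the replicate number of the titles entered the fit as a block, so that each treated array was compared with the untreated array of its own number, 7 of the 10 rose and none fell, against 7.79% of all genes that rose and 5.37% that fell. The 4 that were added were GAGE13, GAGE2A, CTAG1A and ACTL8, of which the GAGE genes may share signal. The replicate numbers were taken to pair the samples, and the fit without the block leaves that pairing out. A gene that did not pass there is therefore not shown to be unchanged. Where the block is not named, rose and fell refer to the fit without it. At an unadjusted p under 0.05 without the block, 7 genes were higher and none lower, against 8.13% of all genes higher and 5.79% lower. The median change of the 10 was 0.97 on the log2 scale (pair medians of 0.98, 1.16 and 0.93), beside -0.02 over all genes tested. Because the genes were picked with results of the same arrays in view, these counts describe the set and are no independent evidence about cancer-testis antigens as a class.

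**Figure D1:**
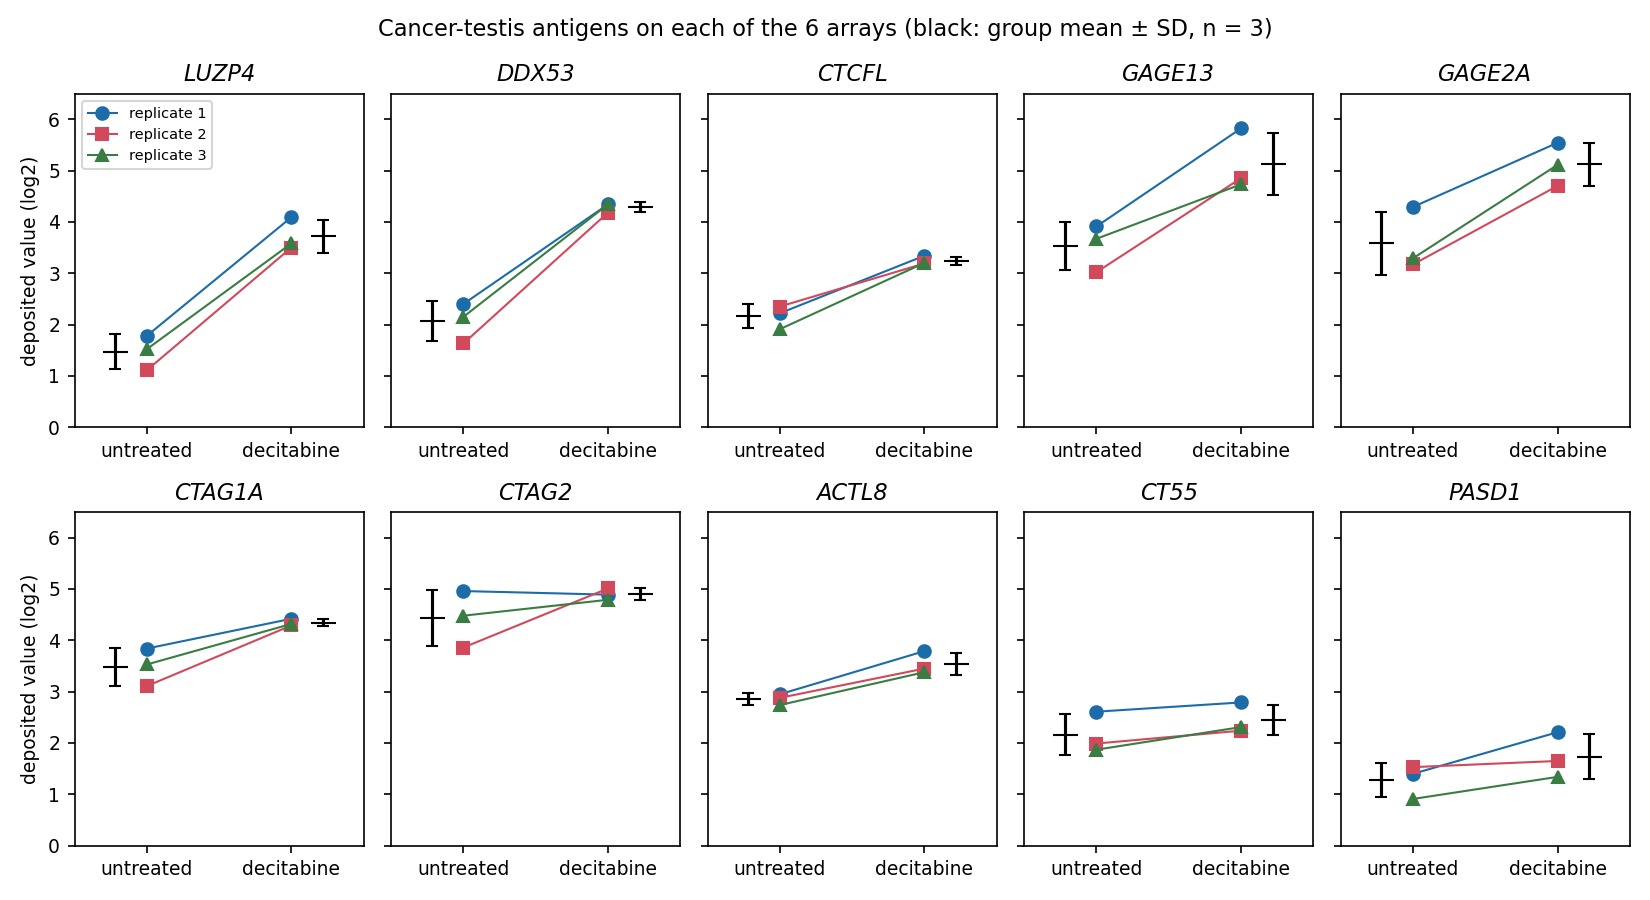
Deposited log2 value (vertical axis) of each of the 10 genes on the 3 untreated and the 3 decitabine arrays, with lines joining arrays of a single replicate number and black bars for the group mean ± SD (n = 3). LUZP4 moved from 1.11 to 1.78 up to 3.50 to 4.09, whereas the groups overlapped for CTAG2, CT55 and PASD1.

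The single-copy X-linked genes LUZP4 and DDX53 showed the largest changes of the set. LUZP4 (Entrez Gene 51213) encodes a leucine zipper protein that acts as an mRNA export adaptor. Its log2 values were 1.78, 1.11 and 1.52 on the untreated arrays of replicates 1, 2 and 3, and 4.09, 3.50 and 3.58 on the decitabine arrays. Every treated value lay at least 1.72 above every untreated one. Means were 1.47 ± 0.34 without and 3.72 ± 0.32 with the drug (SD, n = 3 each). The log2 change was 2.25 (SE 0.26, 95% confidence interval 1.65 to 2.86), which is 4.77-fold if the deposited values are log2, with a limma adjusted p of 0.00503. The 3 pairs gave similar differences of 2.31, 2.39 and 2.06.

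DDX53 (168400) encodes a DEAD-box protein of the RNA helicase family. Its log2 values were 2.40, 1.63 and 2.15 without the drug and 4.34, 4.18 and 4.34 with it. The treated arrays were close together, and most of the spread was among the untreated ones. Means were 2.06 ± 0.39 and 4.29 ± 0.09 (SD, n = 3 each), and the log2 change was 2.23 (SE 0.25, interval 1.66 to 2.79), or 4.68-fold (limma adjusted p = 0.00394). The pair differences were 1.94, 2.55 and 2.19. Ordered from the largest rise down, LUZP4 stood at rank 73 and DDX53 at rank 75 of all 14884 genes, and by absolute change at ranks 88 and 91. Leaving out each array in turn, or both arrays of replicate 1, ended neither call (adjusted p up to 0.0282).

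CTCFL (140690), on chromosome 20, encodes the germ-cell paralogue of the chromatin insulator protein CTCF and is also called BORIS. Its log2 values were 2.22, 2.35 and 1.91 untreated and 3.34, 3.19 and 3.20 after decitabine, so the groups were 0.84 apart at their nearest arrays. Means were 2.16 ± 0.23 and 3.24 ± 0.08 (SD, n = 3 each), and the log2 change was 1.08 (SE 0.21, interval 0.61 to 1.56), or 2.12-fold (limma adjusted p = 0.0335, and 0.00803 with the replicate block). The pairs gave 1.12, 0.84 and 1.29. The call was near the threshold: it was lost without each of the 6 arrays in turn, where the adjusted p ranged from 0.0523 to 0.133. CTCF itself, on the same arrays, went from 8.88 to 8.72, a change of -0.16 (SE 0.20, interval -0.62 to 0.29, adjusted p = 0.940).

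GAGE13 and GAGE2A belong to a tandem family on the short arm of X whose copies encode small acidic proteins. GAGE13 (645051) had log2 values of 3.91, 3.02 and 3.67 untreated and 5.82, 4.85 and 4.73 with decitabine. GAGE2A (729447) had 4.29, 3.17 and 3.29 untreated and 5.54, 4.70 and 5.11 with decitabine. In both, all treated arrays were above all untreated arrays, and both arrays of replicate 1 were the highest of their group. GAGE13 changed by 1.60 (SE 0.36, interval 0.78 to 2.42, 3.03-fold), with an adjusted p of 0.0589 that missed the threshold and of 0.00681 with the replicate block. GAGE2A changed by 1.53 (SE 0.35, interval 0.72 to 2.35, 2.89-fold), with an adjusted p of 0.0645, or 0.00381 with the block. The pair differences were 1.91, 1.83 and 1.06 for GAGE13 and 1.25, 1.53 and 1.82 for GAGE2A, so the pairs did not rank alike in the 2 genes.

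These values cannot be assigned to a particular GAGE copy. The array carried 12 features annotated to 7 GAGE genes, and 3 features annotated to GAGE12C held identical values on all 6 arrays. The 11 features other than that of GAGE10 changed by 1.04 to 1.79 on the log2 scale. All 11 were higher in each of the 3 pairs, by 0.74 to 1.91 in pair 1, 0.89 to 1.94 in pair 2 and 0.92 to 2.40 in pair 3. The groups were separate in 5 of the 11, which hold only 9 distinct sets of values. The 3 identical GAGE12C features are among those that overlapped. Of all genes tested, 11.3% had all treated values above all untreated ones, and 22.9% were higher in every pair. The other feature of GAGE2A gave 1.58 beside the 1.53 above. Without the block none of the 7 genes passed the test, all 6 genes other than GAGE10 having adjusted p of 0.0589 to 0.294 and unadjusted p under 0.05. With the block these 6 rose (adjusted p of 0.00381 to 0.0278). The shares of all genes were 7.79% that rose with the block and 8.13% that were higher at an unadjusted p under 0.05 without it. The feature of GAGE10 had log2 values of 2.27, 1.57 and 1.28 untreated and 2.09, 1.18 and 1.58 treated, a change of -0.09 (SE 0.33, adjusted p of 1.00 without the block and 0.779 with it). Whether GAGE10 differed in change from the other copies was not tested.

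**Figure D2:**
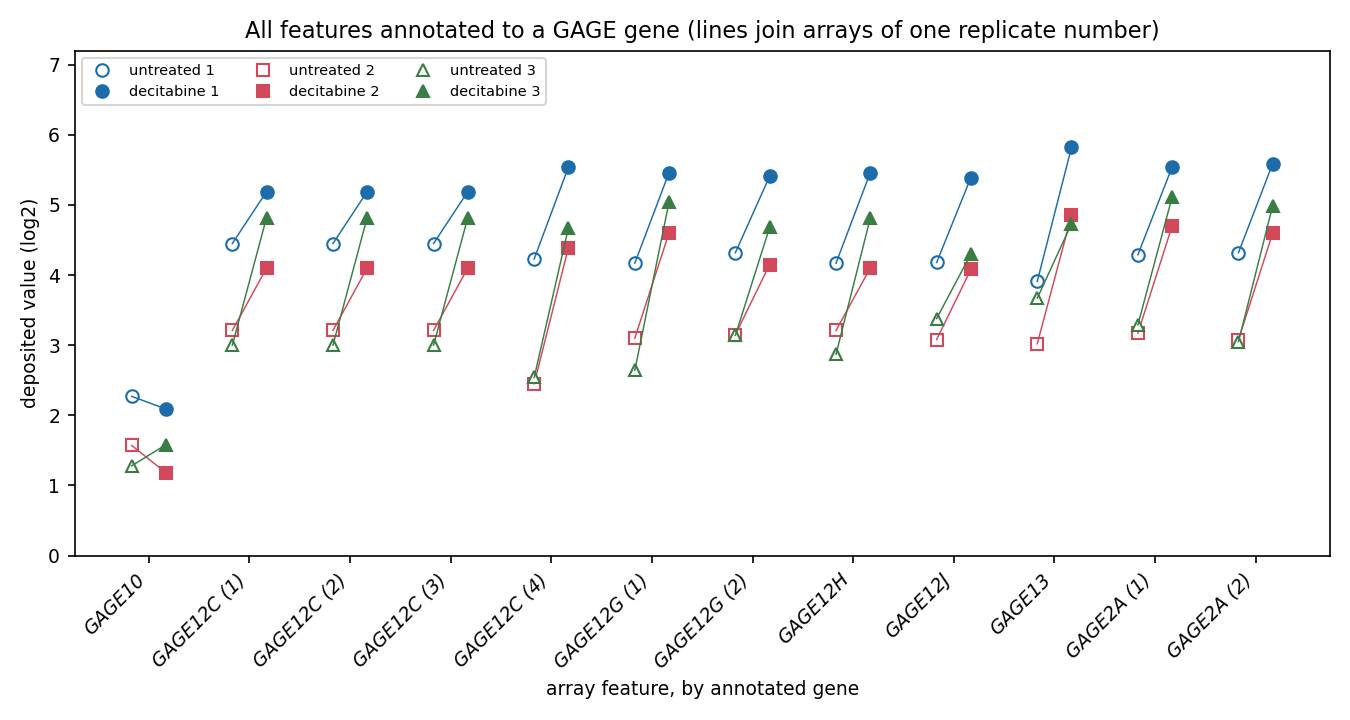
Deposited log2 value (vertical axis) of all 12 features annotated to a GAGE gene, with open symbols for untreated and filled symbols for decitabine arrays and lines joining arrays of a single replicate number. The 11 features other than that of GAGE10 are higher on the treated array of every pair, by 0.74 to 2.40, and differ among themselves by up to 1.13 on an array.

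CTAG1A (246100) is a gene of the immunogenic antigen NY-ESO-1, for which a near-identical gene lies nearby on X, and CTAG2 (30848) encodes the related antigen LAGE-1. The log2 values of CTAG1A were 3.84, 3.11 and 3.53 untreated and 4.42, 4.29 and 4.32 treated. Its groups were separate by 0.45, and its 2 features held identical values on all 6 arrays, so that they are a single measurement and may hold signal of both gene copies. The change was 0.85 (SE 0.24, interval 0.30 to 1.40, 1.80-fold), with an adjusted p of 0.117, or 0.0222 with the replicate block, and the pairs gave 0.58, 1.18 and 0.79. CTAG2 had log2 values of 4.96, 3.86 and 4.48 untreated and 4.89, 5.01 and 4.79 treated. Its groups overlapped, and untreated replicate 1 was above its treated partner by 0.07. The change of CTAG2 was 0.46 (SE 0.29, interval -0.21 to 1.14), with adjusted p of 0.628 and 0.275 without and with the block. The interval of CTAG2 contains the change of CTAG1A, and the difference between the 2 genes was not tested.

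ACTL8 (81569), an actin-like protein gene on chromosome 1, had log2 values of 2.95, 2.88 and 2.74 untreated and 3.79, 3.45 and 3.38 treated. The groups did not overlap, and the untreated arrays spread little (2.86 ± 0.11, SD, n = 3). The change was 0.68 (SE 0.21, interval 0.21 to 1.16, 1.61-fold), with an adjusted p of 0.151, or 0.0229 with the block, and the pairs gave 0.84, 0.57 and 0.64.

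CT55 and PASD1, both on X, had overlapping groups and passed neither fit. CT55 (54967) is a testis gene that is needed for normal sperm formation. Its log2 values were 2.61, 1.99 and 1.87 untreated and 2.79, 2.24 and 2.31 treated, a change of 0.29 (SE 0.27, interval -0.34 to 0.92, adjusted p = 0.858, and 0.201 with the block). PASD1 (139135) encodes a PAS domain protein that represses the circadian CLOCK and BMAL1 complex. Its log2 values were 1.40, 1.53 and 0.91 untreated and 2.21, 1.65 and 1.34 treated, a change of 0.45 (SE 0.29, interval -0.21 to 1.12, adjusted p = 0.631, and 0.137 with the block). Treated arrays were higher in all 3 pairs of both genes, by 0.18, 0.25 and 0.44 in CT55 and by 0.81, 0.12 and 0.43 in PASD1. The intervals without the block allow changes from slightly below 0 up to 0.92 and 1.12, so these arrays do not show that either gene was unchanged.

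Across the set, 29 of the 30 pair differences were above 0, and 9 of the 10 genes were higher in every pair, as were 22.9% of all genes. GAGE13 and GAGE2A may share signal, as may CTAG1A and CTAG2, so the 10 genes are not 10 separate measurements in these counts. The 3 treated values lay above the 3 untreated ones in 7 of the 10 genes and in 11.3% of all genes. Only 4 of the 10 (GAGE13, GAGE2A, CTAG1A and CTAG2) had a mean in the brighter 50% of genes. LUZP4, DDX53 and CTCFL were in the dimmer 50%, no measure of background was used, and rises from such levels hold only for the deposited values.

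**Figure D3:**
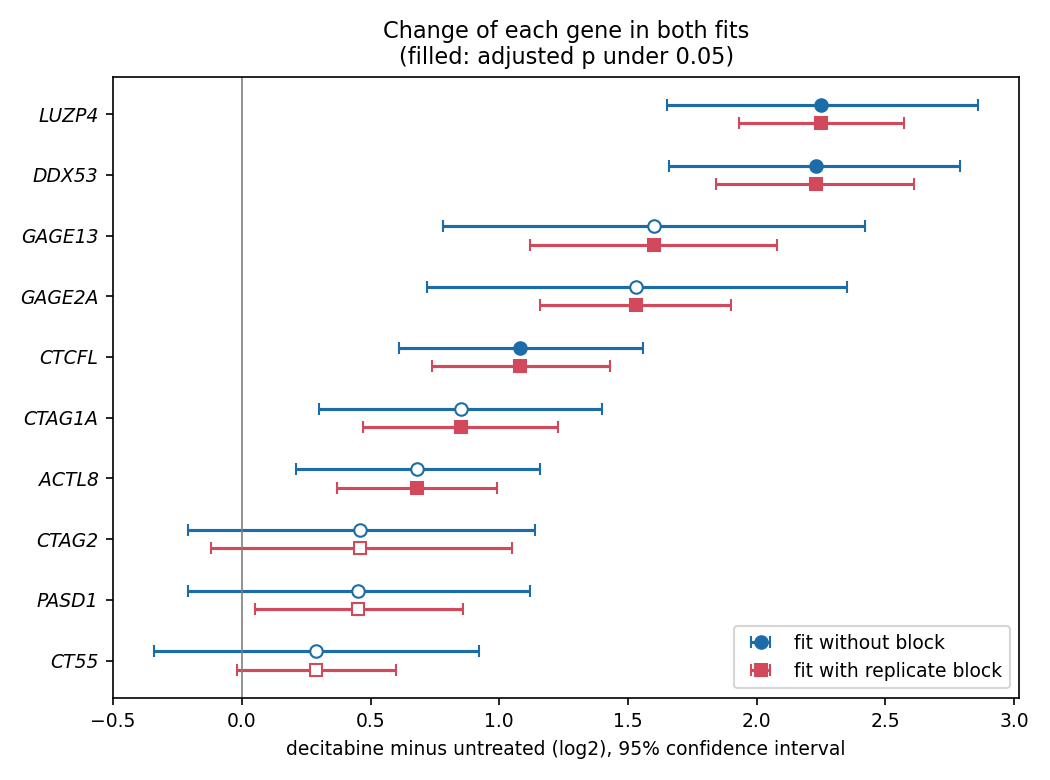
Decitabine minus untreated on the log2 scale (horizontal axis) with its 95% confidence interval for each of the 10 genes, without the block (circles) and with the replicate block (squares), filled where the adjusted p was under 0.05. Filled circles are LUZP4, DDX53 and CTCFL, and squares add GAGE13, GAGE2A, CTAG1A and ACTL8.

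A broader list of 217 cancer-testis genes had 91 members with a named feature, the 10 genes included, and the other 126 were not analysed here. Of the 91, 12 rose, none fell and 79 did not pass, and 31 rose and none fell with the replicate block. Over all genes, 2.01% rose and 1.02% fell without the block, and 7.79% rose and 5.37% fell with it. At an unadjusted p under 0.05, 28 were higher (8.13% over all genes) and none lower (5.79% over all genes). The 28 and the 31 each include 6 GAGE genes that share signal. The median change of the 91 was 0.20 (pair medians of 0.19, 0.14 and 0.28), beside -0.02 over all genes. The 10 genes and the list were chosen with earlier results of these arrays known. Of the 81 listed genes other than the 10, 9 rose and none fell, and 24 rose and none fell with the block. The 24 include 4 GAGE genes. At an unadjusted p under 0.05, 21 of the 81 were higher and none lower, and their median change was 0.12. Besides LUZP4, DDX53 and CTCFL, the genes that rose were TKTL1 (by 5.61), HORMAD1 (5.45), MAEL (4.88), TDRD1 (4.26), CABYR, FMR1NB, PIWIL2 (2.26), CRISP2 and DDX43. HORMAD1 acts on meiotic chromosomes, and MAEL, TDRD1 and PIWIL2 belong to the germ-cell piRNA machinery against transposons. FMR1NB, an X-linked testis antigen beside FMR1, rose from 2.83 to 5.65, a change of 2.82 (SE 0.24, adjusted p = 0.00145). CABYR, a calcium-binding protein of the sperm tail, rose from 4.74 to 7.71, a change of 2.97 (SE 0.38, adjusted p = 0.00692). CRISP2, a secretory protein of sperm, rose by 2.06 (SE 0.38, adjusted p = 0.0300), and its call was lost on leaving out untreated replicate 2 or 3 or decitabine replicate 2 (0.0820 to 0.138).

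The listed genes on X and on other chromosomes were counted apart. Of 23 on X, 4 rose (LUZP4, DDX53, FMR1NB and TKTL1) and 11 rose with the block, with a median change of 0.46, and 6 of those 11 were GAGE genes that share signal. Of 68 on other chromosomes, 8 rose and 20 rose with the block, with a median of 0.15. Among all 569 measured genes on X, 22 rose and 5 fell (54 and 16 with the block), and their median change was 0.01. Over genes of all chromosomes, 2.01% rose and 1.02% fell (7.79% and 5.37% with the block). No test of a difference between these groups was made.

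**Figure D4:**
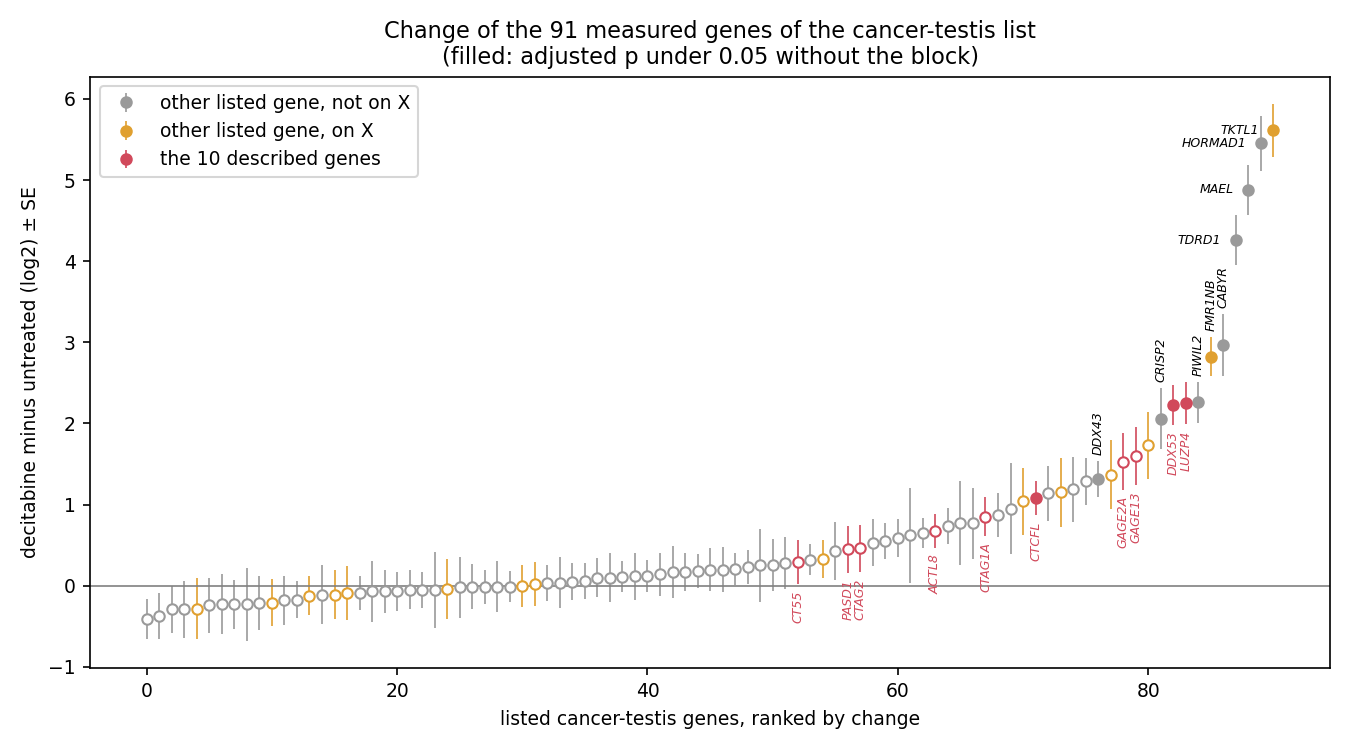
Decitabine minus untreated ± SE on the log2 scale (vertical axis) for the 91 measured genes of the cancer-testis list, ranked by change, with the 10 described genes in red and other X-linked genes in orange, filled where the adjusted p without the block was under 0.05. The changes run from -0.41 to 5.61, and the 10 genes lie between 0.29 and 2.25.

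The partners and relatives of these genes were read from lists in the same fit. Over all genes, the shares to set beside the counts are 2.01% that rose and 1.02% that fell without the block. They are 7.79% and 5.37% with the block, and 8.13% higher and 5.79% lower at an unadjusted p under 0.05. In the list of mRNA export genes, where LUZP4 acts, 1 of 18 rose (LUZP4 itself) and none fell, 3 were higher and 3 lower at an unadjusted p under 0.05, and 2 rose and 2 fell with the block. ALYREF, an export adaptor used in most cells, changed by 0.59 (adjusted p of 0.171, and 0.0335 with the block), and THOC6, a subunit of the THO complex, by -1.16 (0.0691, and 0.00551 with the block). Of 32 DEAD-box helicase genes, DDX53 and DDX43 rose and none fell, and 8 rose and 1 fell with the block. DDX43 (55510), a further cancer-testis helicase, rose from 5.08 to 6.41, a change of 1.32 (SE 0.22, adjusted p = 0.0195), but its call was lost on leaving out untreated replicate 2, untreated replicate 3 or any decitabine array (0.0634 to 0.110).

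Of 18 genes of CTCF and cohesin, the ring complex that holds chromatin loops at CTCF sites, CTCFL, STAG3 and ESCO2 rose and none fell, and 4 rose with the block. STAG3, the meiotic cohesin subunit, rose by 1.66 (SE 0.27, adjusted p = 0.0195), and ESCO2, a cohesin acetyltransferase, by 1.29 (SE 0.19, adjusted p = 0.0123). The call of STAG3 was lost on leaving out untreated replicate 2, untreated replicate 3 or any decitabine array (0.0564 to 0.104), and that of ESCO2 on leaving out replicate 2 or 3 of either group (0.0605 to 0.0718). None of 15 actin-like genes and none of 16 circadian clock genes passed in limma without the block. At an unadjusted p under 0.05, 3 actin-like genes were higher and none lower, and 3 clock genes were higher and 2 lower. The shares over all genes were 8.13% higher and 5.79% lower. With the block 3 actin-like genes rose, and 3 clock genes rose and 1 fell, beside 7.79% and 5.37% of all genes. CRY1, a repressor of the clock, changed by 1.11 (adjusted p of 0.0747, and 0.00628 with the block) and PER2 by -0.95 (0.168, and 0.0589 with the block).

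For each of the 3 genes that rose, the genes nearest in pattern were taken as those with the smallest Euclidean distance between deposited values over the 6 arrays, as a description. Nearest to LUZP4 were CRISP2 (distance 0.73), ZNF229 (0.87) and HOXD13 (1.03). Those nearest to DDX53 were DSG3 (0.50), ZNF667-AS1 (0.52) and DAW1 (0.56), with changes of 2.18, 2.38 and 2.11. Nearest to CTCFL were EFHC2 (0.41), TSPAN2 (0.43) and LRCH2 (0.47), of which TSPAN2 did not pass the test (change 0.85, adjusted p = 0.110, and 0.0128 with the block).

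The arrays were checked against markers of the line and of other cells, with shares over all genes to set beside the counts. These shares are 2.01% that rose and 1.02% that fell without the block, and 7.79% and 5.37% with it. At an unadjusted p under 0.05 without the block they are 8.13% higher and 5.79% lower. Over all features the array medians were 2.29 to 3.03, highest on both arrays of replicate 1. Of 9 measured mesenchymal and basal markers of the line the mean per array was 7.76 to 8.03 untreated and 7.41 to 7.71 treated, so the groups did not overlap. AXL fell by 1.79 (adjusted p = 0.00361) and EGFR fell by 1.15 (0.0195), and with the block ZEB1 fell too (0.0438). The list did not fall as a whole: 5 of the 9 changed upward, by up to 0.29, and the median change was 0.04. The call of EGFR was lost on leaving out untreated replicate 2, untreated replicate 3 or any decitabine array (0.0624 to 0.120). TWIST1 was at 1.91 to 3.40 on all arrays. Of 9 luminal markers the mean was 3.43 to 3.96 untreated and 3.57 to 4.20 treated, with ESR1 at 2.43 or less, PGR at 1.54 to 2.95 and KRT18, a luminal keratin, at 7.57 to 7.97. None of the 9 passed in limma without the block, where 1 was higher and none lower at an unadjusted p under 0.05, and 2 rose with it. These were EPCAM, an epithelial adhesion protein (change 1.10, adjusted p of 0.127 without and 0.00829 with the block), and KRT19 (0.63, 0.548 and 0.0380).

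Of 16 measured germ cell markers DAZL, an RNA-binding protein of germ cells, rose (1.44, SE 0.27, adjusted p = 0.0292), a call lost on leaving out untreated replicate 2, untreated replicate 3 or any decitabine array (0.0602 to 0.143). With the block DDX4, the germ-cell helicase VASA, rose too (1.56, adjusted p of 0.0670 without and 0.00743 with the block). The mean of that list was 2.20 to 2.94 on untreated and 2.41 to 3.03 on treated arrays, and the sperm protamine PRM1 changed by 0.10. Markers of testis somatic cells (7 measured), immune cells (5) and endothelium (6) had no member past the threshold in limma without the block. At an unadjusted p under 0.05, 1, 2 and 0 of them were higher and none lower. Over all genes 8.13% were higher and 5.79% lower at that cut, and 7.79% rose and 5.37% fell with the block. With the block SOX9 of the testis somatic list (1.13, adjusted p of 0.0629 without and 0.0177 with the block) and CD14 of the immune list (0.72, 0.115 and 0.0247) rose, and no endothelial marker did. The part of these markers in the results above was not tested.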

How the data were processed

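Total RNA of 6 SUM159 samples was hybridised after biotin labelling to single-colour expression arrays. The authors' deposited table holds log2-like values for 48226 features, and per the submitters' processing notes the tool was the Transcriptome Analysis Console. Its version, normalization, filters and genome build were not given in the sources used here. Values ran from 0.17 to 12.89, were read as log2 and were used as deposited. The base is not stated, so folds rest on that reading. Platform annotation named 16098 features, all with an Entrez Gene ID in the RefSeq table of GRCh38.p14, giving 14884 genes, each read from its feature of highest mean.

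Groups came from the treatment labels, and replicate numbers from the titles. Limma 3.58.1 in R 4.3.3 was fitted across all 14884 genes with all 6 arrays and no covariate, and checked on simulated data. There it recovered 8% of 2-fold and 60% of 4-fold changes, and 29% and 76% with the replicate block. A gene that did not pass may therefore still have changed. Residuals of arrays with the same number correlated at 0.558 to 0.682, and of the others at -0.483 to -0.006, so the numbers were taken to pair the samples; the check cannot tell paired cultures from arrays processed together. Blocked values are therefore given where they change the call of a named gene or the count of a list. Every member is named, with its value on each array. Of the cancer-testis list every gene that rose is named, and of the other lists up to 4 that passed. THOC6, ALYREF, PER2 and CRY1, the extremes of their lists, and TWIST1, KRT18, ESR1, PGR, EPCAM, KRT19, ZEB1, DDX4, SOX9, CD14 and PRM1 were named after their values were seen. The members and lists were chosen with earlier results of these data known. No protein sequences were used. Precision is limited by the number of arrays.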

Additional observations from a re-analysis of the deposited data

How the results depend on the processing

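The 10 genes kept their direction under all alternatives run, and LUZP4 and DDX53 kept their call in every one that tested them; leaving out the dimmer 50% of genes removed 6 of the 10, LUZP4, DDX53 and CTCFL among them. CTCFL lost its call in 10 of 14 alternatives, with changes of 0.96 to 1.18 throughout: leaving out any single array, leaving out both arrays of replicate 1 (adjusted p = 0.0881), median centring (0.0839), an intensity trend with a robust prior (0.0688), and testing all 48226 features (0.0832). Of the 10 genes, 3 rose in the reported fit, 7 with the replicate block, 6 with quantile normalization and 2 to 3 when single arrays were left out. GAGE13 and GAGE2A passed with quantile normalization (0.0144 and 0.0113), median centring (0.0109 and 0.00878) and the trend (0.00802 and 0.0100). Of the broader cancer-testis list, 31 genes passed with the replicate block, 19 with the trend, 18 with quantile normalization, 15 with median centring and 9 to 13 when single arrays were left out, against 12. The 94 relatives in the other lists gave 3 calls, and 20 with the replicate block, 13 with quantile normalization, 5 with median centring, 12 without the dimmer genes and 15 with the trend. They gave 0 to 6 when single arrays were left out, with 14 to 24 at an unadjusted p under 0.05 in limma. The cause of these shifts was not tested. Over all genes, 2.01% rose and 1.02% fell in the reported fit, and 7.79% and 5.37% with the replicate block. At an unadjusted p under 0.05 without the block, 8.13% were higher and 5.79% lower. Shares over all genes in the other settings are not given, so the counts there do not single out these genes.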

Other observations

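Among the other genes of the cancer-testis list, 15 passed only with the replicate block: 4 were GAGE genes and 11 were not. Over all genes, 2.01% rose without the block and 7.79% with it. The 11 had changes of 0.53 to 1.29 on the log2 scale. OIP5, a centromere protein, went from 4.61 to 5.90, a change of 1.29 (limma adjusted p of 0.0607, and 0.00584 with the block). ELOVL4, a fatty acid elongase, changed by 1.14 (0.0410 with the block), DSCR8 by 0.95 (0.0293) and IHO1, which acts in meiotic recombination, by 0.87 (0.0132). SPAG1 changed by 0.77 (0.0170), TMEFF2 by 0.77 (0.0410) and KNL1, a kinetochore protein, by 0.74 (0.0262). CEP55, which acts in the separation of daughter cells, changed by 0.65 (0.0247), the mitotic kinesin KIF20B by 0.59 (0.0375), the sperm protein SPA17 by 0.55 (0.0445) and CTAGE1 by 0.53 (0.0478). The groups overlapped in DSCR8, SPAG1, TMEFF2 and CTAGE1 and were separate in the other 7. Among all genes tested, 11.3% had all 3 treated values above all 3 untreated ones. The 11 were taken because they passed the blocked test on these same arrays, so their separation is no added evidence.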
